A study of Mus musculus with 6 samples.

Results

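The 8 mouse genes for the slow, fast and cardiac isoforms of troponin T, troponin I and troponin C were compared in fetal leg muscle at embryonic day 18.5, with 3 samples of wild type (WT) fetuses and 3 of fetuses with a knockout (KO) of *SYISL*. The deleted gene, *SYISL*, encodes a long noncoding RNA and lies within *Synpo2*. The members were taken by gene ID from a count table of 56262 genes and are *Tnnt1*, *Tnnt2*, *Tnnt3*, *Tnni1*, *Tnni2*, *Tnni3*, *Tnnc1* and *Tnnc2*. All 8 passed the filter on low counts, as did 22071 genes in all. Each fetus came from parents of its own genotype, so the genotype of the fetus, that of its mother and the litter cannot be told apart. The labels do not say whether the 3 samples of a genotype came from different litters, so the p-values measure the spread between these samples, which may be technical in part. No row of the table could be matched to *SYISL*, so the deletion was not checked in these counts, and the host gene *Synpo2* rose from 136 ± 4.21 to 214 ± 18.9 counts per 1e6 counts (CPM, mean ± SD, n = 3 per genotype; log2 fold change 0.66 ± 0.063 SE; edgeR adjusted p = 2.89e-05). The 8 markers of skeletal muscle fibres described below rose by a larger median log2 fold change, 0.90. The part of muscle RNA in the *Synpo2* value was not tested.

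Troponin is the calcium switch of the thin filament in striated muscle. Troponin C binds calcium, troponin I holds the filament in its inhibited state at rest, and troponin T anchors the complex to tropomyosin. Each subunit is encoded by separate genes for slow and fast skeletal fibres, and the heart has its own troponin T (*Tnnt2*) and troponin I (*Tnni3*) genes, while *Tnnc1* serves both slow fibres and the heart. *Tnnt2* is also transcribed in embryonic skeletal muscle, and troponin I and troponin T genes lie beside each other in pairs in the genome.

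The leg muscle libraries held 82054811 to 102233181 counts each, and levels below are in CPM of library sizes scaled by the trimmed mean of M values (TMM). All 8 markers of skeletal muscle fibres listed were detected and rose in KO, with a median log2 fold change of 0.90. Of all genes tested, 8.31% rose and 8.39% fell by the thresholds given below. The summed level of the 8 markers was 6516 to 6966 CPM in WT and 11703 to 14019 CPM in KO. Epidermal RNA moved the other way: all 11 markers of epidermis fell, from a summed 17053 to 25446 CPM in WT to 758 to 878 CPM in KO, and the WT sample with the highest level, WT 2, had the lowest *Tnnt3* and *Tnni2* levels of the 6 samples. The part of this difference in the troponin results was not tested. In bulk tissue, a difference in the number of muscle cells and one in the RNA per muscle cell cannot be told apart.

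The isoform genes differ in sequence throughout their coding regions. Between members of a family, the aligned coding bases were 66% to 70.8% identical, and the longest identical stretch in any of the 7 pairs was 22 bases, between *Tnni1* and *Tnni2*. Shown here are the 60 coding bases, within a single exon, in which both *Tnni1* and *Tnni3* best match *Tnni2*. They were chosen because they mark how far the genes can be told apart by their reads. They lie in exon 7 of each gene (GENCODE transcripts, GRCm38), at chr1:135808749-135808808 on the plus strand for *Tnni1*, chr7:142444022-142444081 on the plus strand for *Tnni2* and chr7:4519399-4519458 on the minus strand for *Tnni3*. Capitals mark the 17 positions at which the 3 genes are not identical.
Tnni1: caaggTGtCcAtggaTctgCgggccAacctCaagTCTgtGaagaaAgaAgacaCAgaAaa
Tnni2: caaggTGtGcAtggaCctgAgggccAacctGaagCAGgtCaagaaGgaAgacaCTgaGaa
Tnni3: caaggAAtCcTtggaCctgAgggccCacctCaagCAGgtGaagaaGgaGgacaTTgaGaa
Even in this stretch, *Tnni1* matched *Tnni2* at 49 of 60 bases and *Tnni3* matched it at 51.

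The fast troponin T and I genes rose, and the slow and cardiac genes did not pass the thresholds. The listed counts of the fast troponin C gene also rose, with a limit on their reading that is given with that gene. A gene was called at an adjusted p under 0.05 in edgeR's quasi-likelihood test and a fold change over 1.5. By this rule 3 of the 8 genes rose (*Tnnt3*, *Tnni2* and *Tnnc2*) and 0 fell, where 8.31% of all genes tested rose and 8.39% fell. DESeq2 and limma-voom also called 3 higher and 0 lower, and at an unadjusted edgeR p under 0.05, 4 were higher and 2 lower, beside 25.3% and 26.6% of all genes. The WT and KO values did not overlap for 6 of the 8 genes, beside 55.9% of all genes. The median log2 fold change was 0.24 over the 8 genes and -0.0041 over all genes tested.

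**Figure D1:**
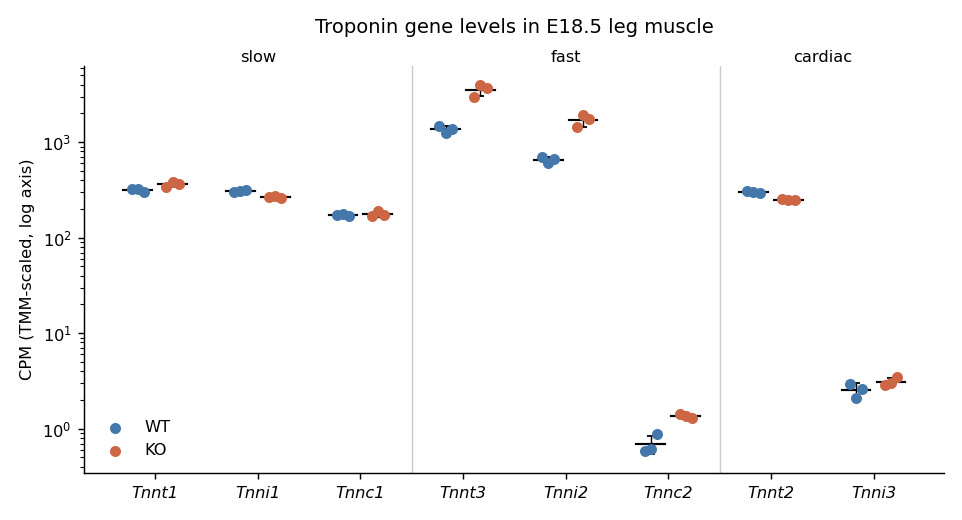
Level of each troponin gene in CPM (log axis) in the 3 WT and 3 KO samples; points are samples, wide lines are means and error bars are SD. *Tnnt3* and *Tnni2* stand apart between the genotypes, while the slow genes *Tnnt1*, *Tnni1* and *Tnnc1* lie between 168 and 383 CPM in all 6 samples.

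*Tnnt3*, the fast skeletal troponin T (ENSMUSG00000061723.18, chromosome 7, 142498836 to 142516009, plus strand, mm10), was at 1483, 1234 and 1386 CPM in WT 1 to 3 and at 2979, 3945 and 3720 CPM in KO 1 to 3. Every KO sample was above every WT sample, and KO 1 was the lowest of the KO samples. The WT mean of 1368 ± 126 CPM compared with a KO mean of 3548 ± 505 CPM, which is 2.59-fold (log2 fold change 1.38 ± 0.11 SE, edgeR adjusted p = 9.43e-06). Among all genes tested it stood at rank 52 by CPM in WT and at rank 23 in KO.

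*Tnni2*, the fast skeletal troponin I (ENSMUSG00000031097.15, chromosome 7, 142441808 to 142444410, plus strand), was at 698, 600.3 and 662 CPM in WT and at 1428, 1910 and 1760 CPM in KO. The samples took the same order as for *Tnnt3*, with WT 2 lowest and KO 2 highest. The means were 654 ± 49.3 and 1699 ± 247 CPM, a log2 fold change of 1.38 ± 0.11 (edgeR adjusted p = 6.48e-06), or 2.60-fold. The count of *Tnni2* relative to *Tnnt3* was almost the same in every sample, at 0.470, 0.486 and 0.478 in WT and 0.479, 0.484 and 0.473 in KO. Together these genes made up 64.7% ± 2.11 of the counts of the 8 troponin genes in WT and 83.0% ± 1.70 in KO.

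The slow troponin T gene, *Tnnt1* (ENSMUSG00000064179.13, chromosome 7, 4504570 to 4516382, minus strand), was at 321, 326 and 303 CPM in WT and at 338, 383 and 368 CPM in KO. The groups did not overlap, but the gap between the highest WT and the lowest KO sample was small. The log2 fold change was 0.20 ± 0.057 (edgeR adjusted p = 0.0194), or 1.15-fold, below the fold threshold. Without WT 3, KO 2 or KO 3, the adjusted p was 0.0904, 0.0835 and 0.0705.

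*Tnni1*, the slow troponin I (ENSMUSG00000026418.16, chromosome 1, 135779434 to 135810989, plus strand), went in the other direction. It was at 298, 305 and 315 CPM in WT and at 266, 277 and 260 CPM in KO, with no overlap. The log2 fold change was -0.19 ± 0.045 (edgeR adjusted p = 0.00634), and WT was 1.14-fold above KO, again below the threshold. *Tnni1* is the troponin I of developing as well as slow fibres.

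*Tnnc1*, the calcium-binding subunit of slow and cardiac muscle (ENSMUSG00000091898.8, chromosome 14, 31208312 to 31211729, plus strand), was at 173, 177 and 168 CPM in WT and at 168, 190 and 172 CPM in KO. The groups overlapped, with a log2 fold change of 0.034 ± 0.052 SE (edgeR adjusted p = 0.635). This value became -0.035 when library sizes were left unscaled and -0.023 without KO 2. The gene lies within *Nisch* on the opposite strand, with no exonic base in common.

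*Tnnt2*, the cardiac troponin T (ENSMUSG00000026414.13, chromosome 1, 135836354 to 135852260, plus strand), was at 312, 301 and 294 CPM in WT and at 252, 249 and 250 CPM in KO. The 3 KO samples were nearly equal, and all lay below the WT samples. The log2 fold change was -0.27 ± 0.042 (edgeR adjusted p = 6.49e-04), and WT was 1.21-fold above KO. *Tnnt2* and *Tnni1* were thus the 2 members that were lower in KO at an adjusted p under 0.05, both under the fold threshold, where 45% of all genes passed that p at any fold change.

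The cardiac troponin I gene, *Tnni3* (ENSMUSG00000035458.15, chromosome 7, 4518305 to 4524229, minus strand), was at 2.96, 2.09 and 2.59 CPM in WT and at 2.86, 3.02 and 3.45 CPM in KO. The groups overlapped, with a log2 fold change of 0.29 ± 0.13 SE (edgeR adjusted p = 0.110). It was 0.40 without WT 1 (adjusted p = 0.0390) and 0.17 without WT 2 (adjusted p = 0.298), so single WT libraries moved this value. Of its exonic bases, 86 lie in exons of *Dnaaf3* on the same strand. Among 8 cardiac markers, *Nppa*, *Nppb*, *Tbx20* and *Bmp10* did not pass the filter on low counts and had group means of at most 0.155 CPM. Of the other 4, *Myh6* rose (log2 fold change 0.99), *Myl7* and *Mybpc3* fell (-4.91 and -1.17) and *Ryr2* was not called. Of all genes tested, 8.31% rose and 8.39% fell. The 8 markers summed to 10.9 to 12.0 CPM in WT and 13.7 to 15.4 CPM in KO. The part of cardiac RNA in the *Tnnt2* and *Tnni3* values was not tested.

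*Tnnc2*, the fast troponin C (ENSMUSG00000017300.9, chromosome 2, 164777161 to 164779967, minus strand), was listed with 56, 51 and 92 counts in WT and 133, 129 and 125 counts in KO, or 0.693 ± 0.155 and 1.35 ± 0.067 CPM. The KO values did not overlap the WT values, with a log2 fold change of 0.95 ± 0.17 (edgeR adjusted p = 0.00127), or 1.94-fold. This level is far below that of the other fast troponin genes, and *Tnnc2* stood at rank 16641 of 22071 in WT. Of its 800 exonic bases, 592 (74%) lie in an exon of *Ube2c*, a ubiquitin-conjugating enzyme gene of the cell cycle on the opposite strand, and in the coding sequence this holds for 477 of 480 bases. The coding bases of exons 1 to 3 (chr2:164777944-164779665, minus strand, GRCm38) are shown here because they show how little of the gene is its own. Capitals mark bases that also lie in a *Ube2c* exon.
Tnnc2: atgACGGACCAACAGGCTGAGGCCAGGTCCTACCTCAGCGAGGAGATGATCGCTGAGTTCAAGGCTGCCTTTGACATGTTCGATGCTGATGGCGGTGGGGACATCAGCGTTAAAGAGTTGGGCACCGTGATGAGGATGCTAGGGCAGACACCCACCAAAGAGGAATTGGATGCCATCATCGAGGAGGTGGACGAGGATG
Only the first 3 coding bases, in exon 1, are in lower case. Exons 2 to 5 lie wholly within the *Ube2c* exon. Counting programs such as featureCounts discard reads that fit more than 1 gene unless told otherwise or given the strand, and neither setting is stated for these counts. Over the 21974 protein-coding genes of the table, the 415 with at least 70% of their exonic bases shared had a median of 0.0052 CPM, beside 4.50 CPM for the 15429 with none shared. *Ube2c* itself had a mean of 85.8 ± 3.50 CPM in the WT samples and of 68.2 ± 3.96 CPM in the KO samples (log2 fold change -0.33, edgeR adjusted p = 5.68e-04, not called). The level of *Tnnc2* and the shares of troponin C are therefore values of the deposited counts and cannot be read as the level of fast troponin C. The part of the overlap in the low level and in the difference between the genotypes was not tested.

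Isoform shares within a family do not depend on the scaling of the libraries. Counts were divided by the exonic length of each gene and expressed as a share of the family. *Tnnt3* made up 83.4%, 80.7% and 83.3% of troponin T in WT and 91.0%, 92.4% and 92.2% in KO. Its share was higher in each KO sample than in any WT sample, with means of 82.5% ± 1.56 and 91.9% ± 0.736. The slow *Tnnt1* had 13.8% ± 1.31 in WT and 6.80% ± 0.533 in KO, and *Tnnt2* had 3.74% ± 0.244 and 1.34% ± 0.203. In the exact two-sided permutation test each of these differences reached p = 0.1, the smallest value that 3 against 3 samples can give, so no share difference could pass 0.05 in this design.

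Troponin I shifted alike. *Tnni2* made up 84.7%, 82.4% and 83.3% of troponin I in WT and 92.7%, 94.2% and 94.1% in KO, with means of 83.5% ± 1.16 and 93.7% ± 0.850. *Tnni1* had 16.3% ± 1.18 in WT and 6.21% ± 0.842 in KO, and *Tnni3* had 0.235% ± 0.026 and 0.126% ± 0.0151. The genotypes did not overlap for any of these shares (exact permutation p = 0.1 each). In troponin C, *Tnnc1* took 99.5% ± 0.128 of the family in WT and 99.0% ± 0.0874 in KO, values that carry the limit given above for *Tnnc2*.

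The size of the shift depends on the length used. The exons annotated for *Tnnt2* cover 7752 bases, but its longest coding transcript has 1200, so dividing by all exons lowers its share. With the longest coding transcript as the length, *Tnnt3* had 69.6% ± 2.11 of troponin T in WT and 85.5% ± 1.41 in KO, and *Tnnt2* had 13.9% ± 0.741 and 5.50% ± 0.783. *Tnni2* had 75.9% ± 1.55 of troponin I in WT and 90.3% ± 1.26 in KO on this scale. The fast isoform was the largest share in every sample on both scales.

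**Figure D2:**
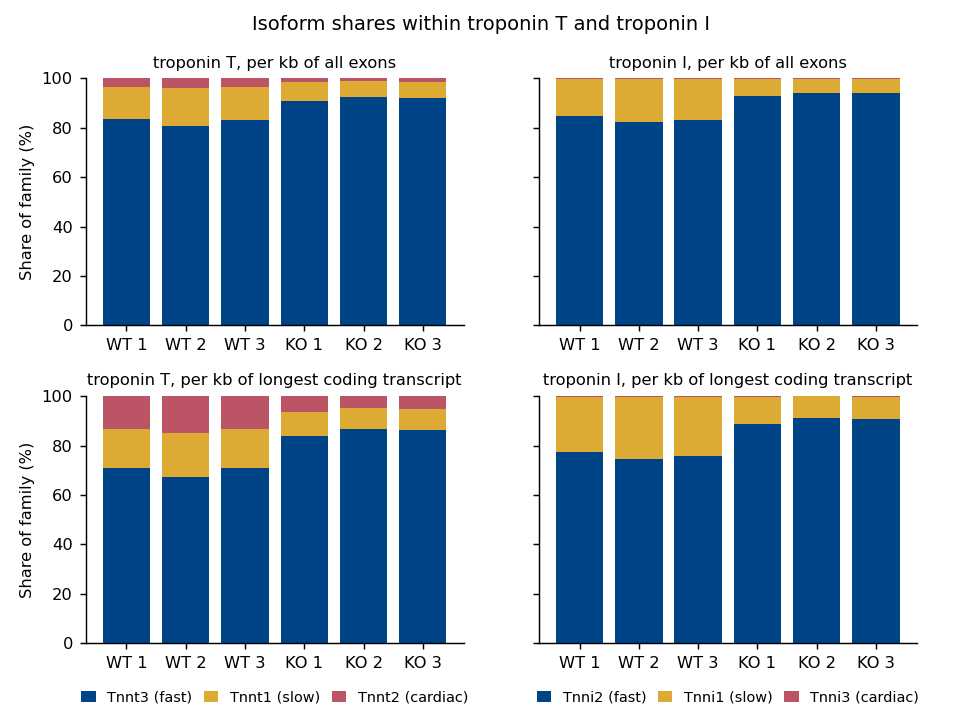
Share (%) of the fast, slow and cardiac gene in troponin T (left) and troponin I (right) in each sample, per kb of all exons (top) and per kb of the longest coding transcript (bottom); each bar is 1 sample. The fast share is higher in each KO sample than in each WT sample in all 4 panels.

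The ratio of fast to slow isoform within a sample needs no lengths. *Tnnt3* was 4.62, 3.79 and 4.57 times the count of *Tnnt1* in WT and 8.82, 10.3 and 10.1 times in KO. *Tnni2* was 2.34, 1.97 and 2.11 times the count of *Tnni1* in WT and 5.37, 6.90 and 6.77 times in KO. Neither ratio overlapped between the genotypes. The ratio was 2.26-fold higher in KO for troponin T (log2 difference 1.17) and 2.96-fold higher for troponin I (1.56), each with an exact permutation p = 0.1. For troponin C the listed counts gave a log2 difference of 0.95 (exact permutation p = 0.1).

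Per kb of exon, the order of the levels in WT was *Tnnt3* (864 ± 79.4 CPM per kb), *Tnni2* (437 ± 33.0), *Tnnc1* (166 ± 3.99), *Tnnt1* (144 ± 5.44), *Tnni1* (85.0 ± 2.25), *Tnnt2* (39.0 ± 1.21), *Tnni3* (1.23 ± 0.210) and *Tnnc2* (0.867 ± 0.194). In KO, the first 6 kept this order, with *Tnnt3* at 2241 ± 319 and *Tnni2* at 1135 ± 165 CPM per kb. *Tnnc1* and *Tnnt1* were neighbours whose KO samples overlapped in level, at 162 to 183 and 153 to 174 CPM per kb. The last 2 changed places in KO, with *Tnnc2* at 1.69 ± 0.0838 and *Tnni3* at 1.51 ± 0.149 CPM per kb, and the ranges of these genes overlapped in both genotypes.
Below *Tnnt3* and *Tnni2*, this order held only for the length of all exons. Per kb of the longest coding transcript, the WT order was *Tnnt1* (299 ± 11.3), *Tnni1* (266 ± 7.04), *Tnnt2* (252 ± 7.84) and *Tnnc1* (239.6 ± 5.76 CPM per kb). In KO, *Tnnc1* (245 ± 16.6) came before *Tnni1* (233 ± 7.45) and *Tnnt2* (209 ± 1.36 CPM per kb) on that scale, and *Tnni3* stayed above *Tnnc2* in both genotypes. The sample ranges of *Tnni1* and *Tnnt2* and of *Tnnt2* and *Tnnc1* overlapped in WT, and those of *Tnnc1* and *Tnni1* in KO.
Per kb of all exons, the summed troponin T level was 2.33-fold higher in KO and the summed troponin I level 2.32-fold. That of troponin C, mostly *Tnnc1*, was 1.03-fold. Per kb of the longest coding transcript, these sums were 2.11-fold, 2.19-fold and 1.03-fold.

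The KO libraries held more RNA of sarcomere genes in general, so the troponin genes were also set against 7 sarcomere genes used in all fibre types (*Ttn*, *Neb*, *Des*, *Actn2*, *Tcap*, *Myom1* and *Ldb3*). Their geometric mean, 476 ± 16.9 CPM in the WT samples, compared with 955 ± 85.7 CPM in the KO samples, which is 1.002 higher on the log2 scale. Relative to this mean, *Tnnt3* and *Tnni2* were each 0.37 higher on the log2 scale in KO (1.29-fold), with no overlap between the genotypes. The other troponin T and I genes and *Tnnc1* were lower: *Tnnt2* by a log2 difference of -1.27, *Tnni1* by -1.20, *Tnnc1* by -0.97, *Tnnt1* by -0.81 and *Tnni3* by -0.70. Each of these 7 differences had an exact permutation p = 0.1, and *Tnnc2* differed by -0.017 (exact permutation p = 0.9). *Tnnt1*, *Tnni3* and *Tnnc1*, whose log2 fold changes in CPM were above 0 and not called, thus lay below WT relative to sarcomere RNA. A scaling of all libraries to these 7 genes moved the median of all genes to -1.002, so a gene at that value has the change of the typical gene. Among the 7, *Tcap* rose most (log2 fold change 1.80), and the rest rose by 0.70 (*Actn2*) to 1.06 (*Des*). The values relative to a mean without *Tcap* were not computed.

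**Figure D3:**
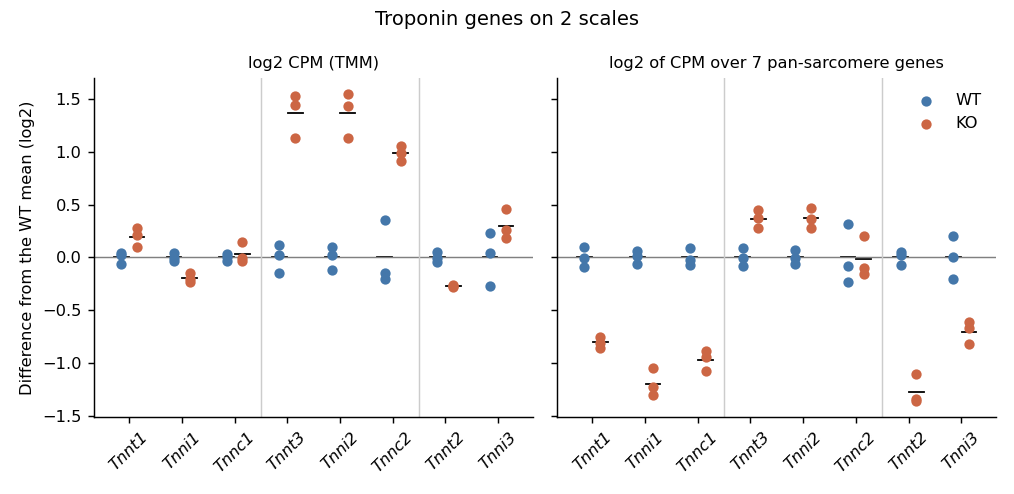
Difference of each sample from the WT mean on the log2 scale, for log2 CPM after TMM (left) and for log2 of CPM over the geometric mean of 7 pan-sarcomere genes (right); points are samples and lines are means. *Tnnt3* and *Tnni2* are above WT on both scales, and *Tnni1* and *Tnnt2* are below WT on both.

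The other genes of the thin filament and its calcium supply mostly rose. Of 18 listed, 14 rose and 0 fell by edgeR, DESeq2 and limma-voom alike, with a median log2 fold change of 0.96. By edgeR, 8.31% of all genes tested rose and 8.39% fell. At an unadjusted edgeR p under 0.05, 17 of the 18 were higher and 0 lower, beside 25.3% and 26.6% of all genes. *Acta1*, the skeletal actin, rose by 1.47, and the tropomyosins *Tpm1* and *Tpm2* rose by 1.14 and 0.90. *Tpm3*, the slow-fibre tropomyosin to which slow troponin T binds, had 0.23 and was not called. *Atp2a1*, the calcium pump of fast fibres, rose by 1.54 and *Pvalb*, a calcium buffer of fast fibres, by 4.19, while *Atp2a2*, the pump of slow fibres and heart, had -0.076 and was not called.

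Fast fibre genes rose throughout: 11 of 11, beside 8.31% of all genes tested. Their median was 1.65, and they include *Mybpc2* (log2 fold change 4.31), *Myh1* (3.10) and *Actn3* (2.59). *Tnnt3* and *Tnni2*, at 1.38 each, lay nearest to *Myl1* (1.30), a light chain of fast myosin, and below the median of this list. Slow fibre genes rose in 7 of 10, beside the same share of all genes, with a median of 0.82. Those that rose include *Myl2* (1.65), *Mybpc1* (1.07), *Myh7* (0.93), the slow myosin heavy chain, and *Myl3* (0.67), while *Tpm3*, *Atp2a2* and *Myh7b* (-0.35) were not called. The slow troponin genes, between -0.19 and 0.20, lay within the range of these last 3 genes and below *Myl2*, *Mybpc1*, *Myh7* and *Myl3*. The 3 lists share members: *Atp2a1*, *Casq1* and *Pvalb* are in the first and the fast list, and *Atp2a2*, *Casq2* and *Tpm3* in the first and the slow list.

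**Figure D4:**
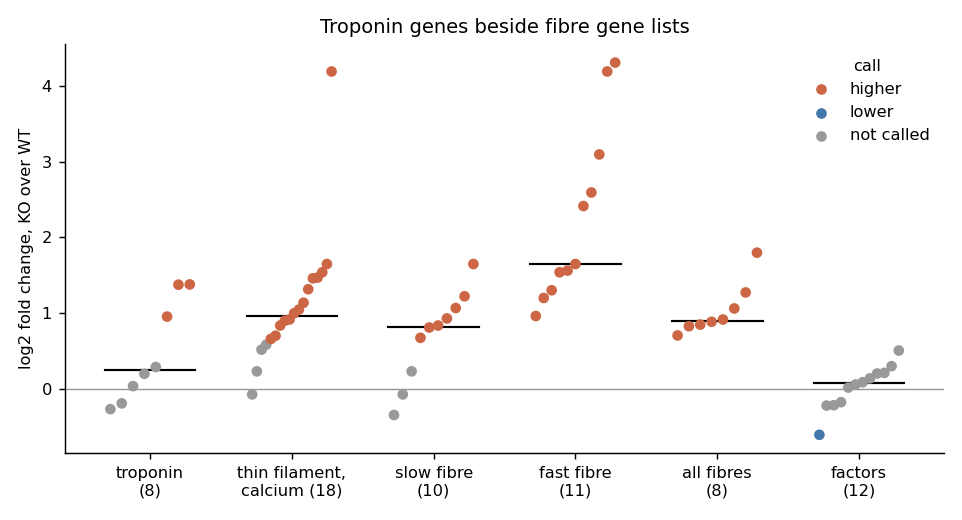
Log2 fold change of KO over WT for the troponin genes and the genes of 5 lists, ordered within each list; points are genes, coloured by call, lines are medians and numbers under the names are genes. All 11 fast fibre genes rose, beside 3 of 8 troponin genes, 0 of 12 factors and 8.31% of all genes tested.

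Of 12 transcription factors and partners known to act on troponin genes, 0 rose and 1 fell by each of the 3 tools. By edgeR, 8.31% of all genes tested rose and 8.39% fell, so these counts are near those shares. The median log2 fold change of the 12 was 0.070. At an unadjusted edgeR p under 0.05, 5 were higher and 4 lower, beside 25.3% and 26.6% of all genes tested. *Tead4*, which binds the MCAT motif of muscle promoters, was at 36.8, 42.1 and 38.7 CPM in WT and at 25.0, 25.5 and 26.5 CPM in KO. All KO samples were lower, with a log2 fold change of -0.61 ± 0.056 (edgeR adjusted p = 2.12e-05). Its relative *Tead1* had 0.14 and *Sox6*, a repressor of slow fibre genes, had 0.21, and neither was called. The largest increase among the 12 was that of *Eya1*, at 0.50 ± 0.081 (edgeR adjusted p = 7.72e-04). It was 1.42-fold, below the fold threshold. Of 6 markers of progenitors and myoblasts, 0 were called by any of the 3 tools, beside 8.31% of all genes higher and 8.39% lower by edgeR. Their median was -0.18. At an unadjusted edgeR p under 0.05, 1 was higher and 4 were lower, beside the same shares of all genes.

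Upstream sequences were matched for 6 of the 8 members in the RefSeq table (GRCm38.p6), and those of *Tnnt3* and *Tnni2* were not matched. The 250 bases before the start of *Tnnt2* (chr1:135836084-135836333, plus strand) and *Tnnc1* (chr14:31208062-31208311, plus strand) are shown because these are the windows that hold an MCAT motif and no annotated exon. Capitals mark the E-box (CANNTG), to which MYOD1 and MYOG bind, and MCAT (CATTCC), searched on both strands.
Tnnt2: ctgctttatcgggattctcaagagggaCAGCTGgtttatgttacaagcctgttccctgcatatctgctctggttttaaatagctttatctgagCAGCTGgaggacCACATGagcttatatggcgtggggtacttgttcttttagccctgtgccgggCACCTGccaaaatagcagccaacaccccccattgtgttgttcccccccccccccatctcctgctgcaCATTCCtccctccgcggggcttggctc
Tnnc1: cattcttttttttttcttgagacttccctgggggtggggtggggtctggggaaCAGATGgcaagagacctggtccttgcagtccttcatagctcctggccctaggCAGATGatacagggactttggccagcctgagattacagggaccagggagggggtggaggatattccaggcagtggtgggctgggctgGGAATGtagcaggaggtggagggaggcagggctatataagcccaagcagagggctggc
*Tnnt2* held 4 E-boxes and 1 MCAT motif, and *Tnnc1* held 2 and 1, the latter on the other strand. Of 32851 windows of this length, 66.2% held an E-box and 12.6% an MCAT motif. The 2 windows of *Tnni1* (chr1:135799171-135799420 and chr1:135799261-135799510) held 4 and 2 E-boxes. They overlap, and both E-boxes of the second are also among those of the first. Both lie within the annotated span of the gene. A second window of *Tnnt2*, which lies in an annotated exon, held 1 E-box and 0 MCAT motifs. *Tnnt1* and *Tnni3* each held 1 E-box in the window searched, *Tnnc2* held 2, and no window of a member held the MEF2 motif, which 2.92% of all windows held. These windows also overlap annotated exons in part. The largest overlap with an exon was 29 bases for *Tnnt1*, 84 for *Tnni3*, 100 for *Tnnc2*, and 19 and 95 for *Tnni1*. A match is only a match of letters, and no binding was measured here.

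The troponin I and T genes lie in pairs, and the values of both genes of a pair are set here beside those of the genes around them. The differences within pairs were not tested. *Tnni1* and *Tnnt2*, 25.4 kb apart on chromosome 1, had -0.19 and -0.27, but *Lad1*, an epithelial anchoring gene that lies between them, fell from 71.1 ± 16.2 to 5.48 ± 0.390 CPM (log2 fold change -3.70 ± 0.15, edgeR adjusted p = 1.51e-07). On the other side of *Tnnt2*, *Pkp1*, a desmosome gene of epithelia that was chosen after its values were seen, had -4.63. Both moved in the direction of the epidermal markers, whose part in these values was not tested. *Tnni2* and *Tnnt3*, 54.4 kb apart on chromosome 7, both had 1.38, whereas *Lsp1* between them had 0.20 ± 0.076 (edgeR adjusted p = 0.0562). *Prr33*, whose gene overlaps *Tnnt3* on the opposite strand with no exonic base in common, rose from 21.4 ± 1.29 to 48.3 ± 1.91 CPM (1.18 ± 0.054, edgeR adjusted p = 2.61e-07). *Syt8*, beside *Tnni2*, fell (-2.15), and *Mrpl23*, beyond *Tnnt3*, was not called (0.099). *Tnnt1* and *Tnni3*, 1.92 kb apart on chromosome 7, had 0.20 and 0.29, and none of the 3 genes around them was called. Of the 10 genes beside or between the pairs, 1 rose and 2 fell, with a median of -0.026, beside 8.31% and 8.39% of all genes tested.

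**Figure D5:**
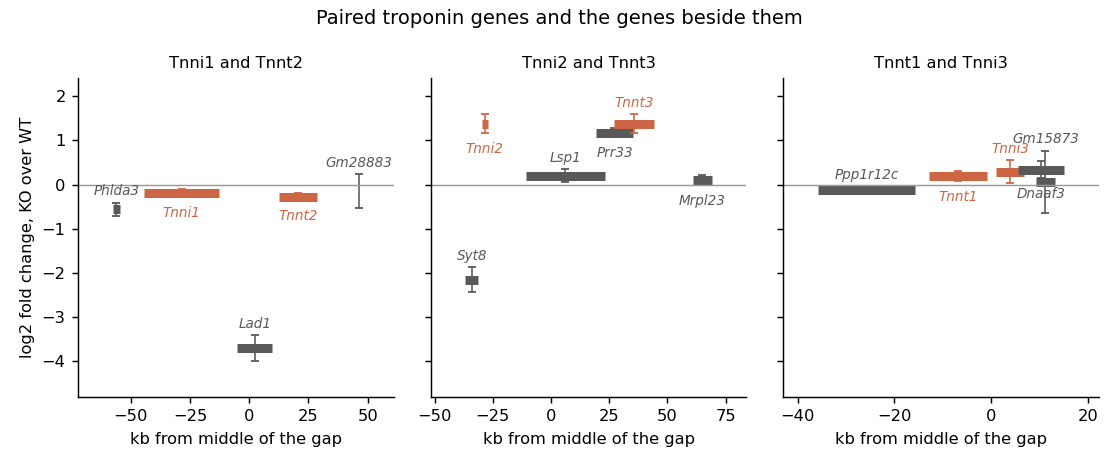
Log2 fold change of KO over WT for the 3 troponin gene pairs (orange) and the genes beside and between them (grey), against distance in kb from the middle of the gap between the pair; bars span each gene and error bars are 1.96 SE. *Tnni2* and *Tnnt3* both lie at 1.38, and *Lad1* lies far below *Tnni1* and *Tnnt2*.

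For each member, the tested genes with a mean of at least 5 CPM were ranked by the Euclidean distance between their log2 CPM profiles over the 6 samples, after subtracting the WT mean. *Tnni2* was the nearest of 12370 genes to *Tnnt3*, and *Tnnt3* the nearest to *Tnni2*, at a distance of 0.042. The next were *Yipf7* (0.10) and *Myot* (0.10), the gene of a Z-disc protein, for *Tnnt3*, and the same 2 genes for *Tnni2*. None of the other 6 members had a troponin gene among its 3 nearest. *Tnni3* and *Tnnc2*, with means under 5 CPM, were not among the genes ranked and could not be named as nearest. The nearest genes were *Borcs7* to *Tnnt1* (0.045), *Chd1* to *Tnnt2* (0.029), *Wdr18* to *Tnni1* (0.039) and *Rnf113a2* to *Tnnc1* (0.043). The distances of the low genes were larger, at 0.15 for *Tnni3* and its nearest gene *Adora1* and at 0.25 for *Tnnc2* and *Clca3a1*.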

How the data were processed

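The authors trimmed paired-end reads with Trim Galore 0.6.6, mapped them to mm10 with HISAT2 2.2.1 and counted them per gene with featureCounts 2.0.1, per the methods and the labels. They deposited whole-number counts for each gene without normalizing them. The counting annotation, the strand setting and the handling of reads shared by genes are not given in the sources used here. The tables of the series and of the samples differed in 0 values. Of 56262 gene IDs, 55227 were found in GENCODE M21, which gave symbols, positions and lengths.

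The counts were tested in R 4.3.3 with edgeR 4.0.16 (filterByExpr, TMM, quasi-likelihood F-test on genotype) over 22071 genes, with Benjamini-Hochberg adjustment over all of them. Calls required a fold change over 1.5 at an adjusted p under 0.05. Error bars in the figure of the gene pairs are 1.96 SE and are narrower than 95% intervals of the F-test. For *Tnni3* they exclude 0, although this gene did not pass an unadjusted edgeR p under 0.05. Shares, ratios and sarcomere-scaled levels were compared with two-sided exact permutation tests. Counting error only was considered for depth, where a count of 0 allows up to 3 counts, or 0.0293 to 0.0366 CPM. WT and KO samples of the same number deviated from their group means with correlations of -0.20, -0.13 and 0.05, so they were not treated as paired. The tests were checked on simulated counts. DESeq2 1.42.0, limma-voom (limma 3.58.1), other scalings, filters, thresholds and leaving out each sample were alternatives.

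The members and the lists of genes, including the markers of muscle fibres, progenitors, heart, smooth muscle, epidermis, cartilage and fat, were chosen with earlier results of these data known. After the results were seen, 2 genes that are not reported here were left out of the lists, 1 of them also of the sarcomere scaling. Named genes are the members, the genes of these lists, the genes between or beside the pairs and the 3 genes nearest in profile to each member. Identity was computed on a global alignment of the coding sequences of 1 principal transcript per gene.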

Additional observations from a re-analysis of the deposited data

How the results depend on the processing

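The calls of all 8 genes held with RLE or upper-quartile factors, DESeq2, limma-voom, both other filters, and without any single sample, with 3 higher and 0 lower throughout. Without fold threshold, *Tnnt1* (0.20), *Tnnt2* (-0.27) and *Tnni1* (-0.19) passed as well, with 2 members lower, and 4838 genes were called higher and 5098 lower. The adjusted p then missed 0.05 for *Tnnt1* with unscaled library sizes (0.0679) and without WT 3, KO 2 or KO 3 (0.0705 to 0.0904), and for *Tnni1* with upper-quartile factors (0.0505), while *Tnni3* passed without WT 1 (0.0390). With a fold change over 2, *Tnnc2* (0.95) no longer passed and 774 genes were called higher. Scaling to the 7 pan-sarcomere genes, which moved the median of all genes to -1.002, gave 0 members higher and 5 lower, and 237 genes higher and 18314 lower. On this scale *Tnnt1* (-0.81), *Tnni3* (-0.71), *Tnnc1* (-0.97) and *Tnnc2* (-0.038) reversed, *Tnnt2* (-1.27) and *Tnni1* (-1.19) passed as lower, and *Tnnt3* (0.37) and *Tnni2* (0.37) no longer passed as higher. *Tnnc1* was not called in CPM under any alternative, and it was -0.035 with unscaled library sizes and between -0.023 (without KO 2) and 0.075 without single samples.

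The KO minus WT shares, in percentage points, moved with the length used. Without length correction they were 16.4 for *Tnnt3*, -9.15 for *Tnnt2*, -18.1 for *Tnni1* and 18.2 for *Tnni2*, and with the coding transcript 15.9, -8.37, -14.2 and 14.3, against 9.38, -2.39, -10.1 and 10.2 with all exons. Adding 1 CPM before the log gave 0.45 for the troponin C ratio and -0.52 for *Tnnc2* relative to sarcomere genes, since *Tnnc2* was listed near 1 CPM. With a replicate block the log2 fold changes were 1.37 for *Tnnt3* and 1.37 for *Tnni2*, and 3 members were called higher. The block changed no call of a member, and 1744 genes were called higher and 1777 lower. Same-numbered samples did not deviate together, so the block has no basis in these data.

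With 3 samples per genotype, no share or ratio can reach an exact p below 0.1. The 51 to 133 counts of *Tnnc2* and 173 to 336 of *Tnni3* limit these genes, and gene counts do not resolve the spliced forms of troponin T.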

Other observations

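Other tissues of the leg also differed between these libraries, where 8.31% of all genes tested rose and 8.39% fell by edgeR. All 6 markers of fat rose, with a median log2 fold change of 2.55 and summed levels of 105 to 137 CPM in WT and 340 to 402 CPM in KO. Of 6 cartilage markers, *Comp* rose (0.79) and 4 fell, among them *Col2a1* (-0.98), with sums of 360 to 465 CPM in WT and 310 to 316 CPM in KO. Of 5 smooth muscle markers, *Myh11* rose (1.07) and 0 fell by edgeR, DESeq2 and limma-voom. At an unadjusted edgeR p under 0.05, 2 were higher and 1 lower, beside 25.3% and 26.6% of all genes tested. The smooth muscle sums were 678 to 683 CPM in WT and 689 to 720 CPM in KO. The part of these differences in the troponin values was not tested.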
